A study of Mus musculus with 10 samples.

Results

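Integrin subunits that are not part of the complement receptors were examined in the RNA of microglia, the resident macrophages of the brain, from mice given a CSF1R inhibitor. The 10 genes Itga4, Itga5, Itga6, Itga9, Itgal, Itgav, Itgb1, Itgb3, Itgb5 and Itgb7 were chosen by symbol from 46152 genes counted. The choice did not use their values, but earlier results of these data were known when it was made. All 10 matched a gene identifier, had counts in all 10 libraries and passed the filter on low counts.

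GW2580 blocks the kinase of CSF1R, the receptor on which microglia depend, and the comparison asked what an oral course of it did to their RNA. C57BL/6J mice, aged 8 to 12 weeks per the study's methods, were gavaged for 8 days with GW2580 at 80 mg/kg/d or with vehicle alone, which was 0.1% Tween 80 with 0.5% Hydroxymethyl Propyl-cellulose. Each group had 5 mice, 2 male and 3 female, with 1 library per mouse, named here by group and replicate number. Cells came from digested brain by a Percoll gradient and magnetic selection for CD11b, itself the integrin subunit Itgam, so other CD11b+ cells can be present.

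Integrins are membrane receptors made of 1 alpha and 1 beta chain. They hold cells to matrix proteins such as fibronectin, vitronectin and laminin or to ligands on other cells, and adaptors such as talin and kindlin join their tails to actin. The pairs of Itgav with Itgb3, Itgb5 or Itgb8 bind proteins with an RGD motif and can release active TGF-beta, the pairs of Itgb1 with Itga5 and Itga6 bind fibronectin and laminin, Itga4 and Itga9 bind VCAM1 among other ligands, and Itgal with Itgb2 (LFA-1) and Itga4 with Itgb7 serve leukocyte adhesion and homing.

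Assigned fragments ran from 12550418 to 20854218 per library with vehicle and from 13228819 to 26079343 with GW2580, and each library held 17703 to 119593 fragments of the 10 integrin genes together. Of 10 microglial markers, 9 were well covered (Aif1 had 0 counts in all libraries), and their summed level ran from 17720 to 34842 CPM, the count scaled to the library by TMM, with vehicle and from 23713 to 72093 with GW2580. Vehicle 5 stood apart from its group. It was the highest vehicle library in 10 of 10 integrin genes, had the lowest microglial sum, and had a lymphocyte marker sum of 564.7 CPM where the other vehicle libraries had 141 to 179 and those of GW2580 66.5 to 187. Vehicle 2 and Vehicle 5 were highest in oligodendrocyte markers, at 17980 and 4460 CPM against 173 to 1812 in the others. Vehicle 1 was highest in monocyte and granulocyte markers, at 17452 CPM. The other vehicle libraries had 418 to 3909 CPM of these and those of GW2580 316 to 5367. In TMM-scaled CPM, GW2580 5 was the lowest GW2580 library in 8 of 10 integrin genes. GW2580 3, with the highest microglial sum, was the highest in 8 of 10. The TMM factor was 0.691 for GW2580 3 and 1.61 for GW2580 4, and a lower factor gives a higher CPM. The place of GW2580 3 thus rests in part on the scaling. Itgav, for example, had 1928 of 26079343 assigned fragments in GW2580 3 and 1287 of 13228819 in GW2580 4, a larger part in GW2580 4. Records on no annotated exon made up 38.4 to 49.1% of those of the vehicle libraries and 38.7 to 60.1% of those of GW2580. In bulk RNA, fewer cells of a type and less RNA per cell cannot be told apart.

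Per length, Itgb5 was the most abundant integrin subunit gene in these cells and Itga4 the least abundant of the 10, so the genomic sequences just before their RefSeq starts are shown as a pair, 250 bases 5′ to 3′ on the plus strand of GRCm38.p6, at chr16:33829415-33829664 for Itgb5 and chr2:79255176-79255425 for Itga4. Capitals mark each match to the GC box GGGCGG on either strand.
Itgb5: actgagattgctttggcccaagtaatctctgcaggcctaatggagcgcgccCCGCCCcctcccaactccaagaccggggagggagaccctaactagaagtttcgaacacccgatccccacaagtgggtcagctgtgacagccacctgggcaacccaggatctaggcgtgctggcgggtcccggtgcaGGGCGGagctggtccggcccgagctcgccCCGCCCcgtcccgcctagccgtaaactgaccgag
Itga4: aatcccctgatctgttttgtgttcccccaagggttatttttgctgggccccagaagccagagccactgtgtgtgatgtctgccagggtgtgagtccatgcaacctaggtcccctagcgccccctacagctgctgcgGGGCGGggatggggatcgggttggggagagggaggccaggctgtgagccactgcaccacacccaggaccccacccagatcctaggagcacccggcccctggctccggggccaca
The window of Itgb5 held 3 GC boxes and that of Itga4 held 1. RefSeq windows matched 7 of the 10 genes, and 4 of these 7 (Itgb5, Itga5, Itga4 and Itgb1) held at least 1 GC box, against 32.7% of all 32851 windows. The letters GAGGAAGT, a form of the site of the myeloid factor PU.1, were found on either strand in the window of Itgav alone among the 7, and in 2.44% of all windows. The motifs do not overlap in these windows. Both motifs were chosen after the windows had been read, and the matches only describe these letters.

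Per length, vehicle microglia expressed Itgb5 far above the other integrin genes. Its level was 339 ± 91.1 RPKM (CPM per kilobase of exon, mean ± SD, n = 5), 10.6 times that of Itgb1 at 32.1 ± 14.9, the common beta chain of many matrix receptors. Itga6, the laminin receptor chain, followed at 20.1 ± 6.54 RPKM. Itgb5 exceeded Itgb1, Itgb1 exceeded Itga6 and Itga6 exceeded the next gene, Itga9, in 5 of 5 libraries of each group.

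Below these came a close group in which neighbours in the order did not differ beyond their spread. Vehicle levels were 7.78 ± 4.26 RPKM for Itga9, 7.21 ± 9.03 for Itgb7, 6.67 ± 2.27 for Itga5, 6.30 ± 2.25 for Itgav and 5.27 ± 2.01 for Itgb3. Itgb7 owed its place to Vehicle 5, and exceeded the next gene, Itga5, in 1 of 5 vehicle libraries. Itgal followed at 3.46 ± 2.58 RPKM, and Itga4 was last at 0.80 ± 0.35, below Itgal in 5 of 5 libraries of each group.

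**Figure D1:**
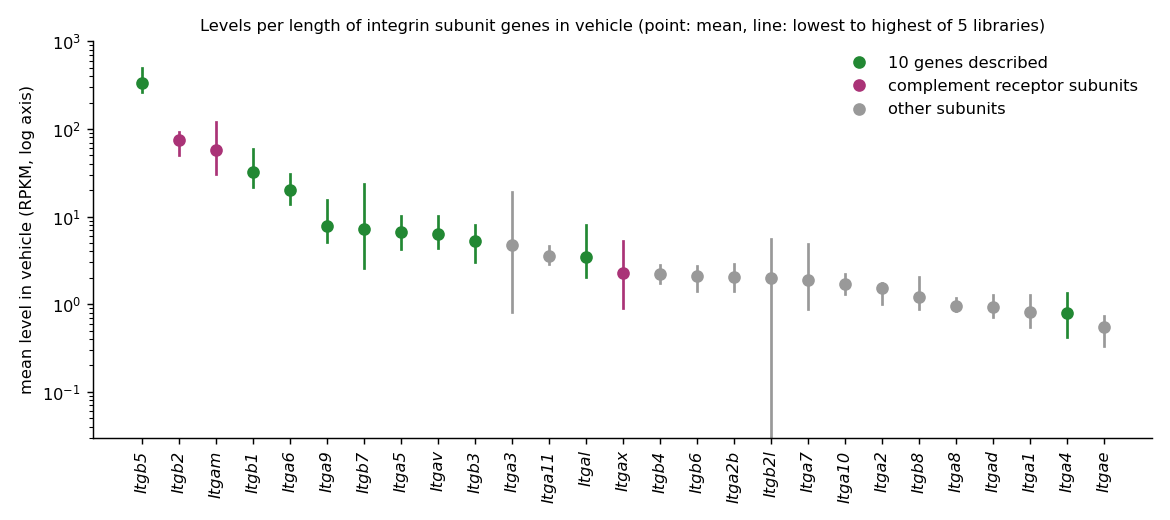
Levels of all integrin subunit genes in vehicle libraries, in RPKM on a log axis, ordered by mean; points are means and lines run from the lowest to the highest of 5 libraries. Itgb5 stands at 339 RPKM, above the complement receptor subunits Itgb2 (75.6) and Itgam (57.5) and above the other 9 genes described, which run from 32.1 to 0.80 RPKM.

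Itgb5 alone made up 79.7 ± 2.92% of the summed RPKM of the 10 genes with vehicle and 82.9 ± 4.80% with GW2580 (n = 5 each). The exact permutation test of that difference gave p = 0.262, so the share did not differ beyond the spread. Vehicle 5 and GW2580 5 had the lowest shares of their groups, 74.9% and 75.1%.

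With GW2580, 1 of the 10 genes was called higher and 0 lower, a call being a fold change over 2 with an unadjusted p under 0.05. Of all 28419 genes tested, 4.01% were called higher and 6.7% lower, so 1 of 10 is not far from the background. The fold change was above 0 for 8 of the 10, with a median log2 fold change of 0.48, while over all genes tested 48.4% were above 0 and the median was -0.03. The smallest adjusted p among the 10 was 0.319. The 9 microglial markers tested had a median log2 fold change of 0.49, with Cx3cr1 and Csf1r called higher. Markers of several other cells moved the other way, with a median of -1.11 for lymphocytes (0 of 12 above 0) and -1.60 for astrocytes (0 of 8). For oligodendrocytes it was -2.09 (0 of 10), for neurons -1.04 (1 of 10) and for monocytes and granulocytes -1.03 (2 of 10). Platelet markers were at -0.48 (1 of 4), and endothelial and mural markers at -0.001 (6 of 12). Border macrophage markers were at 0.91 (5 of 7), with Mrc1 called higher. The summed astrocyte, oligodendrocyte and neuron markers were highest in Vehicle 2 and Vehicle 5. The part of these marker lists in the values of the integrin genes was not tested.

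Without Vehicle 5, 3 of the 10 were called higher (Itgb5, Itgb1 and Itga9), when 6.18% of all genes tested were, and all 10 fold changes were above 0. Leaving out Vehicle 2 with Vehicle 5 gave 1 call, which was Itga9 and not Itgb5, when 5.09% of all genes were called higher. Without Vehicle 5 and GW2580 5, which were known to lie on the side of the other group, Itgb5, Itgb1 and Itga9 were called (3 of 10, against 7.08% of all genes), and 1 of 10, Itga9, had an adjusted p under 0.05, against 17.8% of all genes. Under library size alone, which moved the median of all genes to a log2 fold change of 0.23, that of the 10 genes was 0.74 and Itgb5 was the 1 gene called, against 7.47% of all genes.

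Itgb5, the vitronectin receptor chain that pairs with Itgav, was the gene called higher. Its gene lies on chromosome 16 from 33829665 to 33949338, plus strand, with 16 exon blocks of 3480 bases. The 5 vehicle libraries, in order of replicate number, were at 973, 911, 1150, 1153 and 1714 CPM. The 5 GW2580 libraries were at 2356, 1788, 5417, 2113 and 903 CPM. Thus 4 GW2580 libraries exceeded every vehicle library, while GW2580 5 was below them all, and GW2580 3 was above the others. Much of the gap between GW2580 3 and GW2580 4 lies in the scaling. Unscaled, Itgb5 had 97496 of 26079343 assigned fragments in GW2580 3 and 44628 of 13228819 in GW2580 4. In GW2580 5 it had 13335 of 13462221, a larger part than the 13009 of 16325210 in Vehicle 2. Its place below every vehicle library thus rests on the scaling too.

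The means of Itgb5 were 1180 ± 317 CPM with vehicle and 2515 ± 1713 with GW2580 (SD over 5 mice). This is a log2 fold change of 1.09 ± 0.48 (SE), with an unadjusted edgeR p = 0.0396, an adjusted p = 0.319 and an exact two-sided permutation p = 0.0873 for the difference of 0.89 in mean log2 CPM. The call rested on single libraries: without GW2580 3 the log2 fold change was 0.60 and no longer called, while without Vehicle 5 it was 1.27 and without GW2580 5 it was 1.23, both called. The call was also lost without Vehicle 1, 2, 3 or 4 or without GW2580 1, where the log2 fold change stayed between 1.00 and 1.12.

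**Figure D2:**
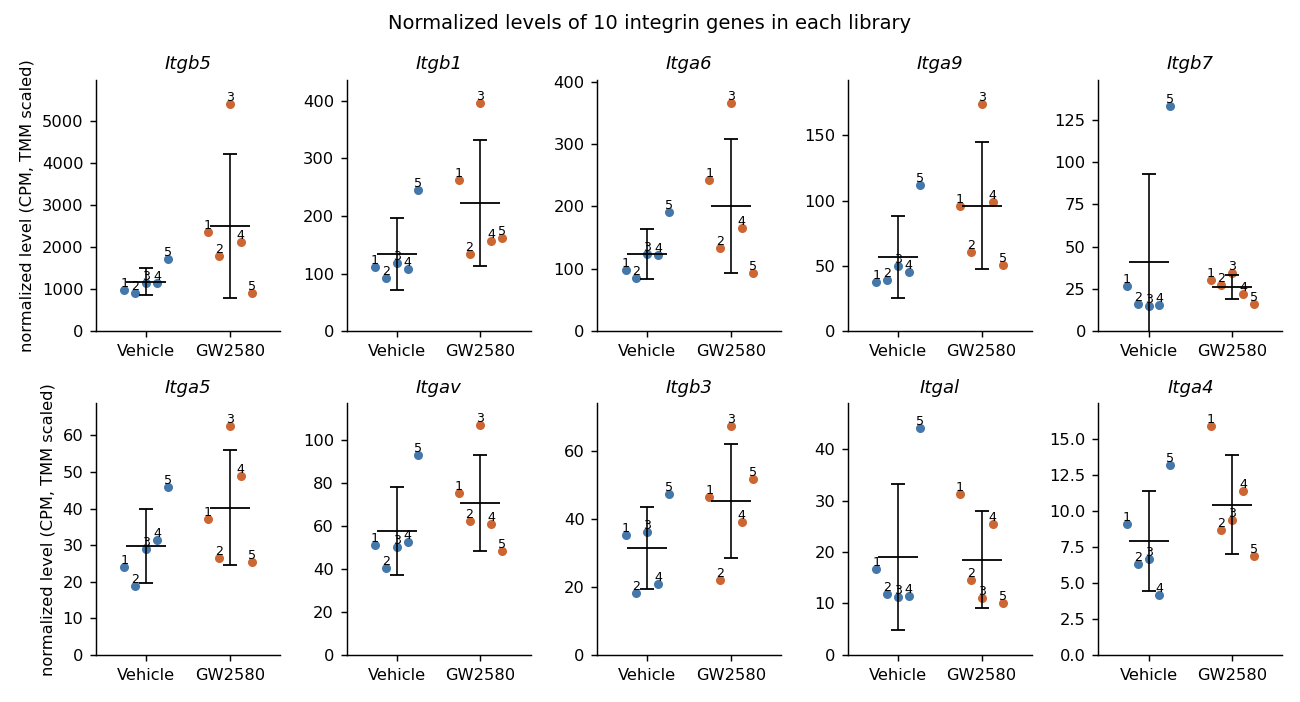
Normalized level in CPM (linear axes from 0) of each of the 10 genes in each library, with the replicate number at each point and bars for the mean ± SD of 5 libraries; the lower bar of Itgb7 in vehicle runs below 0 and is cut there. In these TMM-scaled levels Vehicle 5 is the highest vehicle point in all 10 panels, and GW2580 3 the highest GW2580 point in 8.

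Itgav, the alpha chain that pairs with Itgb5, Itgb3, Itgb8 and Itgb1, was not called. Vehicle libraries were at 51.1, 40.6, 50.5, 52.7 and 93.4 CPM and GW2580 libraries at 75.6, 62.4, 107, 60.9 and 48.7. The groups overlapped, since only GW2580 3 exceeded Vehicle 5. GW2580 over vehicle was 0.30 ± 0.33 on the log2 scale (adjusted p = 0.682, exact permutation p = 0.325).

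Itgb3, the other well-known vitronectin receptor chain and also a subunit of the platelet fibrinogen receptor, ran from 18.1 to 47.2 CPM with vehicle and from 21.9 to 67.3 with GW2580, a log2 fold change of 0.52 ± 0.37 (adjusted p = 0.505). Of 8 platelet markers, Gp1bb and Treml1 had 0 counts in all libraries, Gp1ba and Ppbp did not pass the filter, and Gp9 made up most of the summed level of the list (144 of 152 CPM in Vehicle 3). Itga5, the alpha chain of the classical fibronectin receptor, ran from 18.9 to 45.8 CPM with vehicle and from 25.5 to 62.7 with GW2580, a log2 fold change of 0.43 ± 0.35 (adjusted p = 0.563). In both genes 2 GW2580 libraries exceeded every vehicle library.

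Itgb1, the beta chain shared by the receptors for fibronectin, laminin and VCAM1, was at 111, 91.9, 118, 108 and 245 CPM with vehicle. With GW2580 it was at 263, 134, 395, 156 and 162 CPM. Every GW2580 library thus exceeded the vehicle libraries other than Vehicle 5, which exceeded 3 of them. Its log2 fold change was 0.72 ± 0.40 (adjusted p = 0.407, exact permutation p = 0.119). Without Vehicle 5 it was 1.05 and was called.

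Itga9, which pairs with Itgb1 to bind tenascin C, VCAM1 and osteopontin, had a like arrangement of libraries. Vehicle libraries were at 38.0, 38.9, 49.8, 45.6 and 112 CPM and GW2580 libraries at 96.1, 60.5, 174, 98.7 and 50.5. Each GW2580 library exceeded the vehicle libraries other than Vehicle 5, and 1 exceeded that too. For Itga9 the log2 fold change was 0.76 ± 0.42 (adjusted p = 0.403, exact permutation p = 0.103), and without Vehicle 5 it was 1.16 and was called. Itga9 shares 6 exon bases with Gm51695 on the other strand.

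Itga6, the laminin receptor chain, was at 97.7, 86.1, 124, 122 and 190 CPM with vehicle. With GW2580 it was at 242, 133, 366, 166 and 93.7 CPM, and 2 of these libraries exceeded all those of vehicle. The difference was a log2 fold change of 0.69 ± 0.40 (adjusted p = 0.425, exact permutation p = 0.183). Itga6 followed Itgb5 more closely than any other of the 10 genes did, with a Pearson r of 0.961 over the 10 libraries in log2 CPM.

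Itga4, the alpha chain of VLA-4 and of the gut homing receptor, was the gene with the fewest counts, 72 to 309 per library. It ran from 4.13 to 13.2 CPM with vehicle and from 6.84 to 15.9 with GW2580, a log2 fold change of 0.40 ± 0.35 (adjusted p = 0.595). Its exons share 166 bases with Cerkl on the other strand, and fragments that fall on 2 genes are set apart as ambiguous in these files, a class that was not used.

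The leukocyte chains Itgal and Itgb7 were the 2 genes whose fold change was below 0, and neither was called. Itgb7 was at 26.8, 15.9, 14.9, 15.3 and 133 CPM with vehicle and at 30.3, 27.4, 34.4, 21.8 and 16.0 with GW2580. Vehicle 5 held several times more than any other library, and apart from it the GW2580 libraries were mostly the higher. Its log2 fold change was -0.66 ± 0.59 (adjusted p = 0.601, exact permutation p = 0.968), and it turned to 0.51 without Vehicle 5, again not called.

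Itgal, the alpha chain of LFA-1, was at 16.7, 11.9, 11.2, 11.4 and 44.2 CPM with vehicle and at 31.3, 14.6, 11.1, 25.5 and 10.2 with GW2580. Here too Vehicle 5 was highest, and 2 GW2580 libraries were below every vehicle library. Itgal had a log2 fold change of -0.04 ± 0.46 (adjusted p = 0.974), which turned to 0.54 without Vehicle 5, not called either. The summed lymphocyte markers were highest in the same library, and the summed monocyte and granulocyte markers in Vehicle 1. The part of either in the Itgal and Itgb7 values was not tested.

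**Figure D3:**
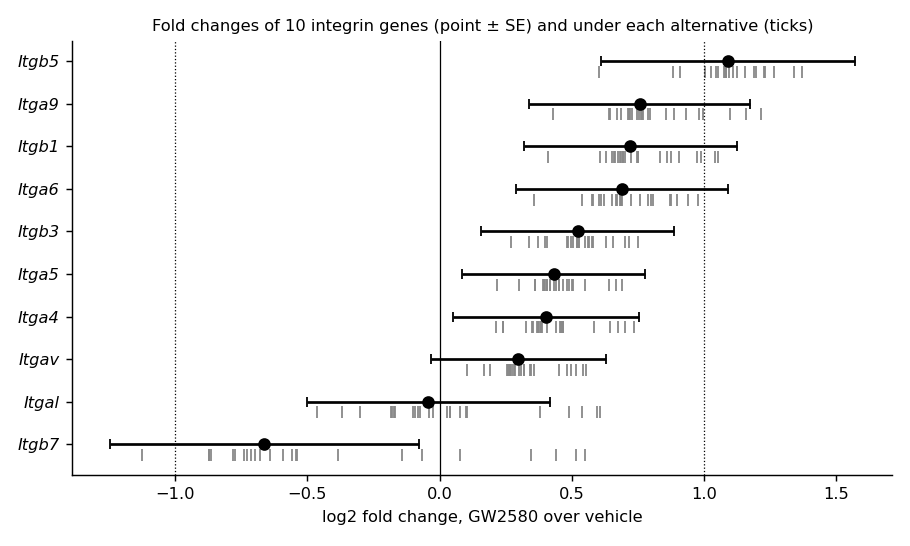
Log2 fold change of GW2580 over vehicle for each of the 10 genes; points with bars are the value ± SE, ticks below are the 24 alternative analyses, and dotted lines mark a fold change of 2. Itgb5 has the largest value, 1.09, its alternatives run from 0.60 to 1.37, and those of Itgal and Itgb7 lie on both sides of 0.

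The balance of alpha and beta chains was compared within each library as the log2 ratio of RPKM for 10 pairs of subunits known to join, which does not depend on the scaling between libraries. For Itgav over Itgb5 the 5 vehicle libraries were at -5.65, -5.88, -5.90, -5.84 and -5.59, and the 5 GW2580 libraries at -6.36, -6.23, -7.05, -6.51 and -5.61. Of the GW2580 libraries, 4 were below every vehicle library and GW2580 5 lay among the vehicle values. The mean fell by 0.58 on the log2 scale (exact permutation p = 0.0397, two-sided, not adjusted over the 10 ratios). Over 12 alternatives it was below 0 in 12, between -0.77 and -0.40, and had a p under 0.05 in 2, although 1 of the 12, the sign flips within replicate numbers, cannot go below 0.0625. Without GW2580 5 it was -0.77 (exact permutation p = 0.00794, the smallest that this split can give). That p follows from leaving out the 1 GW2580 library among the vehicle values, so it adds no support.

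No other ratio passed. Itgav over Itgb1 differed by -0.39 (exact permutation p = 0.0714), with 3 GW2580 libraries below every vehicle library. For the other 8 ratios the exact p was 0.238 or more and the differences ran from -0.73 for Itgal over Itgb2 to 0.52 for Itga4 over Itgb7. In vehicle, the RPKM of Itgav was 0.0183 of that of Itgb5, 0.201 of that of Itgb1 and 1.22 times that of Itgb3, as geometric means. The other genes that pair with Itgb1 were at 0.643 of its RPKM for Itga6, 0.236 for Itga9, 0.213 for Itga5 and 0.0249 for Itga4.

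**Figure D4:**
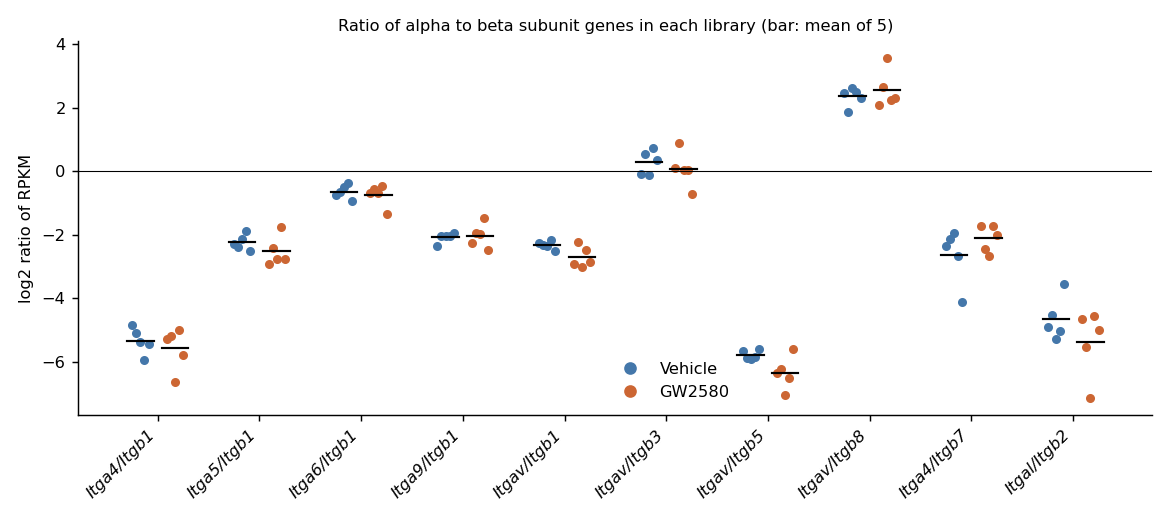
Log2 ratio of RPKM of an alpha chain gene over its partner beta chain gene in each library, with a bar for the mean of 5. Itgav over Itgb5 falls from a mean of -5.77 with vehicle to -6.35 with GW2580, with 1 GW2580 library among the vehicle values, and in all 10 pairs the groups overlap.

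The effect of treatment did not differ detectably between the sexes for any of the 10 genes, with interaction p-values from edgeR of 0.195 for Itgb7 to 0.952 for Itgb5. The log2 fold change of Itgb5 was 1.08 ± 0.84 in the female mice (3 a group) and 1.04 ± 0.49 in the male mice (2 a group, SE), and so few mice show only large differences.

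Over the 10 libraries, Pearson r between the 10 genes ran from 0.25 (Itgal with Itgb5) to 0.96 over the 45 pairs. These values describe libraries that share their scaling, their treatment groups and the same cells. Among 10945 other genes with a mean over 10 CPM, the closest in pattern to Itgb5 were Lemd2 (r = 0.993), Unk (r = 0.993) and Adam15 (r = 0.992). Those closest to Itga6 were Tmem168 (r = 0.993) and Khdrbs1 (r = 0.992), to Itgb1 Akap10 (r = 0.980), and to Itgb7 Vwa8 (r = 0.977). Itgb3 had the loosest company, with Cbl at r = 0.918.

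The other genes of the integrin system are given for comparison. Of the complement receptor subunits, Itgb2 was at 225 ± 51.7 CPM with vehicle and 425 ± 246 with GW2580, a log2 fold change of 0.92 ± 0.41 (adjusted p = 0.325). For Itgam the levels were 269 ± 170 and 585 ± 371 CPM, and it changed by 1.12 ± 0.53 on the log2 scale (adjusted p = 0.343). Itgb2 missed the fold change and Itgam the p of a call. Both were called without Vehicle 5, when 6.18% of all genes tested were called higher. Itgax had a log2 fold change of -0.19 (adjusted p = 0.865), which turned to 0.40 without Vehicle 5. Per length, Itgb5 stood above Itgb2 and Itgam, which were at 75.6 and 57.5 RPKM with vehicle.

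Of 14 further subunits 2 were called lower, Itga3 (log2 fold change -2.02) and Itga7 (-1.16), and 0 higher, against 6.7% and 4.01% of all genes tested. Neither was called without Vehicle 5, in which they were at 102 and 39.1 CPM. By the mean over all 10 libraries the 5 of highest level were Itga3, Itga11, Itgb2l, Itgb6 and Itga2b, all under 5 RPKM, with the place of Itga3 resting on Vehicle 5. The median log2 fold change of the 14 subunits was -0.04.

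Of 28 adaptors and activators, 27 passed the filter (Rasgrp2 did not), 1 was called higher and 3 lower, against 4.01% and 6.7% of all genes tested. The median log2 fold change of the 27 was 0.01. Fermt1, a kindlin, which binds integrin beta tails, was the 1 called higher, at 8.82 ± 1.96 CPM with vehicle and 18.2 ± 7.69 with GW2580, a log2 fold change of 1.05 ± 0.36 (adjusted p = 0.280). It was below 2-fold, or in female mice alone missed both criteria, in 8 of 24 alternatives, among them limma-voom (0.92), the replicate block (0.97) and without Vehicle 2, GW2580 1, GW2580 3 or GW2580 4. Like Itgb5 it was lowest of the GW2580 group in GW2580 5. Parva, Bcar1 and Lims2 were called lower, but in Vehicle 5 Parva was at 308 CPM, against 2.24 to 11.5 in the other vehicle libraries, and Bcar1 at 112, against 3.45 to 9.87. Without Vehicle 5 only Lims2 of these was called lower, and Fermt1, Pxn and Ptk2b were called higher. In that setting 6.74% of all genes were called lower and 6.18% higher. Without Vehicle 2 and Vehicle 5, 4 adaptors were called higher (Fermt1, Pxn, Parva and Ptk2b) and 0 lower, when 5.09% of all genes were called higher and 3.42% lower. The most abundant adaptor genes by the mean over all 10 libraries, Rap1b (209 RPKM), Fermt3 (132), Slc3a2 (126), Ilk (92.7) and Parvg (47.8), were all below Itgb5 in level, and none was called.

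Of 26 integrin ligand genes 0 were called higher and 5 lower (Madcam1, Mfge8, Lama5, Lamb1 and Lamb2), against 4.01% and 6.7% of all genes tested. The median log2 fold change of the 26 was -0.10. Madcam1, the ligand of the Itga4 and Itgb7 pair, was at 2.75 ± 0.66 CPM with vehicle and 1.02 ± 0.51 with GW2580. Its log2 fold change was -1.43 ± 0.41 (adjusted p = 0.280). These levels lay near the filter of 1 CPM, at 2.09 to 3.85 CPM with vehicle and 0.46 to 1.61 with GW2580. No library held more than 55 counts of it. Lama5, a laminin chain, had a log2 fold change of -1.32 ± 0.41 (adjusted p = 0.280). Mfge8, an RGD protein that Itgav with Itgb5 can bind, was at 662 CPM in Vehicle 5 and 27.9 to 124 in the other vehicle libraries. Its log2 fold change of -1.83 turned to 0.61 without Vehicle 2 and Vehicle 5. Lamb1 and Lamb2, also laminin chains, were at 176 and 164 CPM in Vehicle 5, against 7.52 to 12.3 and 6.32 to 11.5 in the other vehicle libraries. Without Vehicle 5 the ligands called lower went from 5 to 2 (Lama5 and Madcam1) and Thbs1 was called higher, when 6.74% of all genes were called lower and 6.18% higher. Without Vehicle 2 as well, Madcam1 and Spp1 were called lower and Thbs1 higher, when 3.42% of all genes were called lower and 5.09% higher. The ligand genes of highest mean level over all 10 libraries, Icam1 (147 RPKM), Tgfb1 (65.6), Mfge8 (53.2), Spp1 (14.8) and Vcam1 (12.6), were below Itgb5 too, although Vcam1, like Mfge8, owed much of its mean to Vehicle 5 (201 CPM, against 15.2 to 18.3 in the other vehicle libraries), and Icam1, Tgfb1, Spp1 and Vcam1 were not called.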

How the data were processed

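Libraries of amplified cDNA were sequenced as read pairs. The authors trimmed the reads, aligned them to GRCm38 with STAR (per the submitters' processing notes) and deposited unnormalized counts of fragments per RefSeq gene over its exons, counted without strand, and the file headers name featureCounts 1.6.3. They also deposited counts of records in each assignment class. Only fragments assigned to genes were tested, and the percentage of records on no exon was used as a description and in an alternative model. Gene length came from the same files. Symbols, positions and promoter windows came from RefSeq on GRCm38.p6 (46029 of 46152 identifiers matched). Groups, sex and replicate numbers came from the sample labels.

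Genes had to exceed 1 CPM in 3 or more libraries, counts were scaled by TMM, and treatment was tested as the only term with the quasi-likelihood test of edgeR 4.0.16 (R 4.3.3), with Benjamini-Hochberg adjustment over all 28419 genes. The SE was the fold change divided by the square root of F. A call needed a fold change over 2 together with an unadjusted p under 0.05. Single genes were also tested on log2 CPM (prior count of 2) by exact permutation of the group labels, two-sided, whose smallest p is 0.00794. Ratios used RPKM after adding 0.5 counts. Python 3.11.15, numpy 2.4.6, pandas 2.3.3, scipy 1.17.1 and matplotlib 3.10.9 were used. The count tests were tested on simulated data.

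The 10 genes, the gene lists and the alternatives were chosen with earlier results of these data known. All 10 genes were named; from the other subunits, adaptors and ligands, the genes called and the 5 of highest mean RPKM were named, and for each of the 10 genes up to 3 of the most alike pattern. The alternatives were DESeq2 1.42.0, limma-voom (limma 3.58.1), other scalings and filters, sex, the replicate block, the percentage of records on no exon, removal of the length trend (loess, span 0.5), each sex alone and left-out libraries. The counts of adaptors and ligands without Vehicle 2 and Vehicle 5 were added after seeing the data. The smallest library had 12550418 assigned fragments. Reads carried no molecular identifiers and are not independent molecules, so each test used the spread between mice.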

Additional observations from a re-analysis of the deposited data

Results flagged for a closer look

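Vehicle 5 lay far from the other 4 vehicle libraries, by Dixon's test at the 95% level, in 5 of the 10 integrin genes. In this library Itgb7 was at 132.9 CPM (the others at 14.9 to 26.8), Itgb1 at 244.9 (91.9 to 118), Itga9 at 111.8 (38.0 to 49.8), Itgav at 93.4 (40.6 to 52.7) and Itgal at 44.2 (11.2 to 16.7). Chance flags about 1 in 20 groups, and the flags come from 1 library and are not independent of each other. The same library had the lowest microglial and the highest lymphocyte marker sum, whose part in these values was not tested.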

How the results depend on the processing

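The number of integrin genes called higher was 1. It was 0 with limma-voom, 0 with no filter, 0 with the replicate block, 0 in female mice alone, 0 in male mice alone, 0 at an adjusted p under 0.05 at any fold and 3 without Vehicle 5 and GW2580 5. These 2 libraries were known to lie on the side of the other group when they were chosen, so leaving them out favours calls; there 17.8% of all genes, and 1 of the 10, had an adjusted p under 0.05. Leaving out each library gave 0 to 3. The count called lower was 0 under all 26 alternatives. At an adjusted p under 0.05 with all libraries, edgeR called 0 of 28419 genes, of which 4186 had an unadjusted p under 0.05, and DESeq2 called 246. The log2 fold change of Itgb5 was above 0 under all 24 alternatives (0.60 to 1.37) and was called under 12. With the replicate block it was 0.91 and not called. Replicate numbers did not pair the samples: same-numbered libraries deviated with correlations of -0.05, 0.39, 0.09, -0.44 and -0.57. 

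Fold changes (log2) turned direction as follows, and the cause was not tested. Itgal turned to 0.041 with limma-voom, 0.38 with library size alone, 0.10 with the replicate block, 0.028 with the length trend removed, 0.49 without Vehicle 2 and Vehicle 5, 0.61 without Vehicle 5 and GW2580 5 and 0.59 in males. Itgb7 turned to 0.076, 0.44, 0.55 and 0.34 with the replicate block, without Vehicle 2 and Vehicle 5, without Vehicle 5 and GW2580 5 and in males. Itgax turned to 0.060 with library size alone, 0.011 with the replicate block, 0.22 with the percentage on no exon, 0.49 without Vehicle 2 and Vehicle 5 and 0.39 without Vehicle 5 and GW2580 5. Without Vehicle 2 and Vehicle 5, Itga3 was 0.23, Parva 1.05, Bcar1 0.31, Mfge8 0.61 and Lamb2 0.26, and without Vehicle 5 and GW2580 5, Parva was 0.31 and Lamb2 0.12. Leaving out each library in turn gave -0.30 to 0.54 for Itgal, -0.87 to 0.51 for Itgb7, -0.18 to 0.40 for Itgal in mean log2 CPM, -0.28 to 0.51 for Itgb7 in mean log2 CPM, -0.39 to 0.018 for Itga4/Itgb1 as a log2 ratio, -0.18 to 0.040 for Itga6/Itgb1 as a log2 ratio, -0.085 to 0.17 for Itga9/Itgb1 as a log2 ratio, -0.039 to 0.33 for Itgav/Itgb8 as a log2 ratio, -0.45 to 0.40 for Itgax, -3.55 to 0.37 for Parva and -2.31 to 0.13 for Lamb2.
Madcam1 could not be fitted in male mice alone, and DESeq2 gave no p for 6 genes (Itgb7, Itga3, Parva, Bcar1, Lamb1 and Lamb2). With 5 mice a group, differences under the spread between mice could not be seen.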
